A study of Mus musculus with 4 samples.

Results

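The 200 most abundant TCONS_ features of untreated mouse spermatogonial stem cells are described here. They were taken from the 43397 features whose identifier starts with TCONS_ and whose length is under 10000 bases. The choice went by the highest mean RPKM over both vehicle libraries. RPKM is reads per kilobase of length and per 1000000 reads counted on the listed features of the library. The files list 70677 features in all, of which 43399 have a TCONS_ identifier. The retinoic acid libraries played no part in the choice. RNA came from germ cells of C57BL/6 pups aged 6 to 8 days that had been enriched for Thy1 and cultured in serum-free medium with GDNF, GFRA1 and bFGF. All cultures grew on mitotically inactivated STO cells, a mouse fibroblast line used as a feeder layer. The 2 libraries of the treated group had 24 hr of trans-retinoic acid, labelled 0.3 mM in 0.1% ethanol, and the 2 vehicle libraries 24 hr of 0.1% ethanol alone. The labels do not say whether the libraries of a group came from separate cultures, so the tests rest on a spread that may be technical.

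Spermatogonial stem cells are the cells of the testis that both renew themselves and feed sperm production. GDNF, acting through a receptor that includes GFRA1, sustains their renewal, and retinoic acid pushes spermatogonia towards differentiation and meiosis. Identifiers of the TCONS_ form are the ones that the Cufflinks assembly tools give by default to transcripts put together from reads. Long non-coding RNA, the subject of the series, is often catalogued from such assemblies. Whether these identifiers were made that way is not given in the sources used here. None of the 70677 identifiers (0) was found in the RefSeq or GENCODE tables used, so the features are given by identifier and length, with no gene, position, sequence or coding class. For the same reason neither germ cell nor fibroblast markers could be looked up. How much of this RNA came from the mouse feeder cells was not tested.

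The unique reads counted on the listed features came to 7918431 to 8156257 a library. Reads outside these features are not known. At these totals each of the 200 features was well sampled, with 140 reads in the least covered case and 46598 in the most. Together the 200 features took 7.93% of all counted reads in vehicle replicate 1 (95% Wilson interval 7.915% to 7.952%, counting error only). In vehicle replicate 2 they took 9.01%. They took 8.64% in retinoic acid replicate 1 and 7.60% in retinoic acid replicate 2. The groups overlap, at 8.47% ± 0.76 in vehicle and 8.12% ± 0.74 after retinoic acid (SD, n = 2). With 2 libraries a group, at least 2 of the 6 possible arrangements are as extreme as any result, so shares were given no exact permutation test. Among reads of TCONS_ features alone the share was 28.0% ± 1.9 in vehicle and 27.1% ± 2.4 after retinoic acid (SD, n = 2). A large part of the reads of this identifier series thus sat in very few of its features.

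Levels fell off steeply within the 200. The mean vehicle RPKM ran from 4692 for the first to 112.8 for the last, a 41.6-fold span, with a median of 189.7. Only 15 features passed 1000 RPKM, and 106 lay under 200. These values chose the features and are a description. Nothing separates the features on either side of the limit. TCONS_00161468 and TCONS_00146984, the last features inside it, had mean vehicle RPKM of 112.9 and 112.8. TCONS_00122818 and TCONS_00044141, the first features outside it, had 111.9 and 111.8.

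Short features stood at the top. The 200 had a median length of 771 bases (range 155 to 8956), against 1084 for the other TCONS_ features under the length limit. Features under 300 bases were 2.16% of all those eligible and 20.5% of the 200 (41 features). They made up 44.1% of the summed vehicle RPKM of the 200 but 9.85% of their vehicle reads. At the other end, the 37 features of 3000 bases or more held 44.4% of the reads and 10.3% of the summed RPKM. Dividing by length thus raised the short features in this ranking. Each of the 10 highest features still had more reads than the median of the 200 in both vehicle libraries (1828 and 2122). A ranking by normalised counts without division by length shared 100 of its 200 features with the list, and its median length was 3952 bases.

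**Figure D1:**
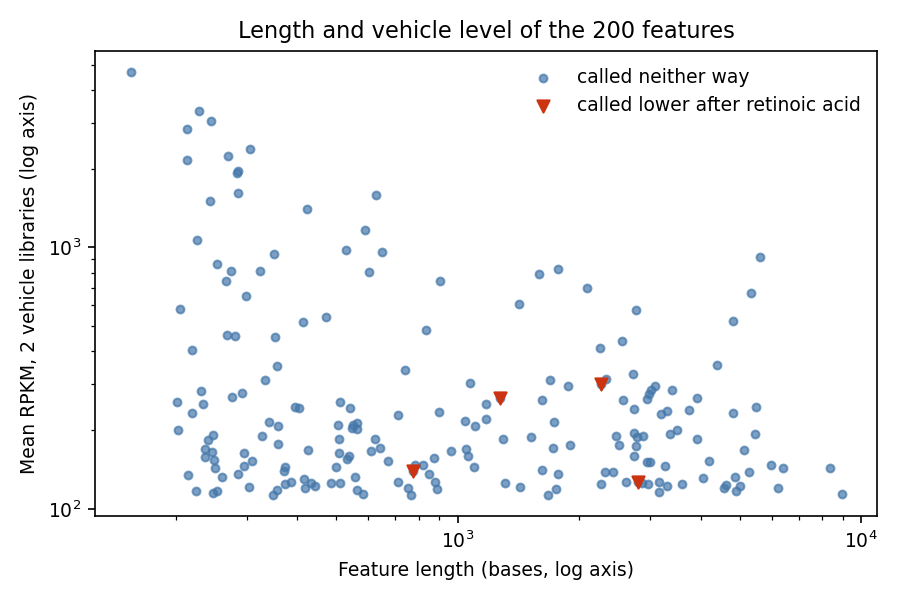
Mean RPKM over the 2 vehicle libraries (vertical, log axis) against feature length in bases (horizontal, log axis) for the 200 features, with the 4 features called lower after retinoic acid as red triangles. The first 10 features are 155 to 305 bases long, and the lower edge at 112.8 RPKM is the limit of the choice.

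The 10 highest features were 155 to 305 bases long and held 32.7% of the summed vehicle RPKM of the 200. TCONS_00076849, of 155 bases, was first in both groups, with RPKM of 4593 and 4792 in the vehicle libraries and 3996 and 3698 in the retinoic acid libraries. Both retinoic acid values lay below both vehicle values, yet the difference was not called (log2 fold change -0.33, 95% interval -0.84 to 0.19, edgeR adjusted p = 0.774). TCONS_00162586, of 229 bases, had 2227 and 4415 in vehicle and 2476 and 3237 after retinoic acid. Its vehicle libraries were further apart than its group means. TCONS_00072821, of 244 bases, had 2781 and 3325 in vehicle against 2985 and 2742. TCONS_00034149, of 213 bases, had 2769 and 2888 against 2998 and 2924, the narrowest spread among the first 4. TCONS_00145016, of 305 bases, had 2409 and 2356 against 2667 and 1684. TCONS_00053483, of 269 bases, had 2392 and 2071 against 2625 and 2150. In both of these features the replicate 1 library was the higher of its group.

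TCONS_00164259, of 213 bases, had RPKM of 1943 and 2365 in vehicle and 1692 and 1798 after retinoic acid, with no overlap between the groups. TCONS_00003900, of 283 bases, had 1724 and 2113 against 1937 and 1826. TCONS_00037219, of 286 bases, had 1419 and 1818 against 1541 and 1373. The groups overlapped in the last 2. TCONS_00139185, of 285 bases and ranked eighth, was unlike the rest. It had 1032 and 2898 in vehicle and 3596 and 2536 after retinoic acid, so 1 vehicle library lay far below the other 3 libraries. Its fitted log2 fold change was 0.59 (95% interval -0.039 to 1.23, edgeR adjusted p = 0.539). That value went to 1.59 without vehicle replicate 2 (adjusted p = 0.00751) and to -0.016 without vehicle replicate 1 (adjusted p = 0.996). None of the 10 was called by edgeR with all 4 libraries. The lowest adjusted p among them was 0.539, and the fitted changes of the other 9 ran from -0.35 to 0.066.

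**Figure D2:**
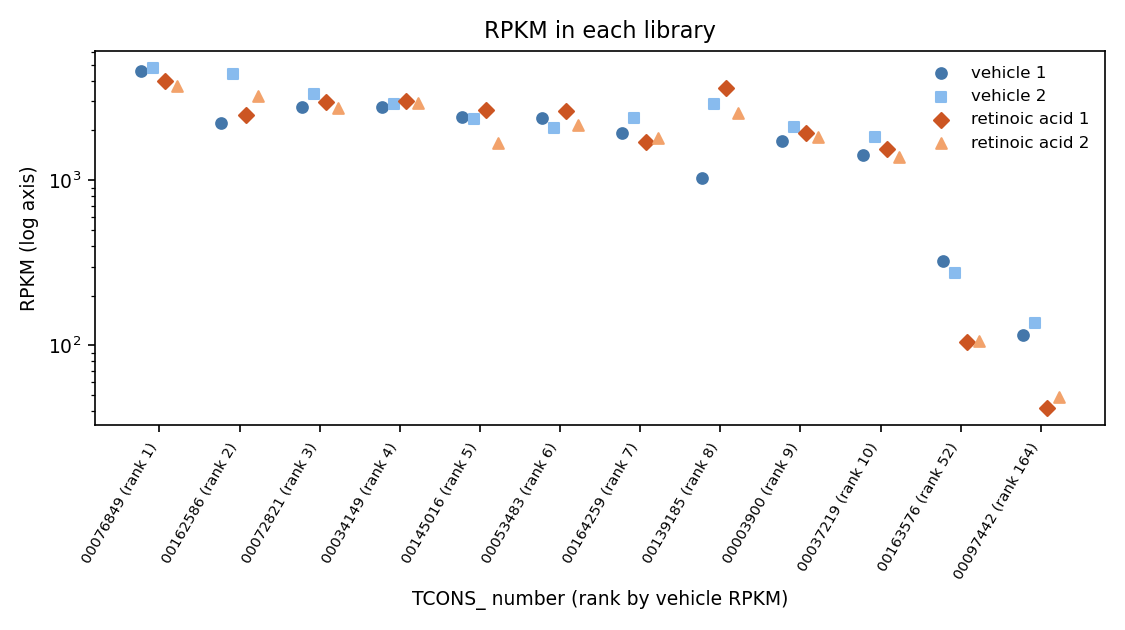
RPKM in each of the 4 libraries (vertical, log axis) for the 10 features with the highest vehicle mean and, at the right, the 2 features with the largest falls after retinoic acid. Vehicle replicate 1 of TCONS_00139185 sits at 1032 while the other libraries of that feature lie between 2536 and 3596, and both retinoic acid libraries of TCONS_00163576 and TCONS_00097442 sit below both vehicle libraries.

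The features with the most reads were others, all of them long. The 10 with the highest summed vehicle counts were 1590 to 8378 bases long and held 25.0% of the reads of the 200, and 0 of them were among the 10 highest by RPKM. The following ones were picked after their values were seen. TCONS_00012497, 5616 bases long and ranked 19, was read 42096 and 42051 times in the vehicle libraries, against 46598 and 33005 after retinoic acid. TCONS_00156366, of 5345 bases and ranked 29, had 26619 and 31752 against 29007 and 27749. The groups overlap in both, with fitted log2 fold changes of -0.069 (95% interval -0.67 to 0.53) and -0.045 (-0.62 to 0.53). TCONS_00110424, 1769 bases long and ranked 21, was read 11790 and 11972 times in the vehicle libraries, against 7836 and 6473 after retinoic acid. There the groups were apart, with a log2 fold change of -0.73 (95% interval -1.27 to -0.18) that did not pass adjustment over all features (edgeR adjusted p = 0.222).

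Levels in the retinoic acid libraries, which the rule did not use, kept nearly the same order. Of the 200 features, 181 were also among the 200 highest by mean retinoic acid RPKM, 47 of the first 50 were among its first 50, and 9 of the first 10 among its first 10. Each retinoic acid library on its own held 177 or 180 of the 200 in its own 200 highest. Of the 19 features that dropped out, 17 had a vehicle rank above 130, near the limit, and 17 were still within the first 300. The 19 that took their places came from vehicle ranks down to 395, and 0 of these were called higher by edgeR; of the 19, TCONS_00041068 rose in rank the furthest, from 395 to 197 (log2 fold change 0.74, edgeR adjusted p = 0.317). Across the 200 features Pearson's r of log2(RPKM + 1) was 0.975 between the vehicle libraries, 0.970 between the retinoic acid libraries and 0.948 to 0.969 for pairs of a vehicle and a retinoic acid library. The points are features that share the same 4 libraries, and r is given as a description.

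Coverage, the share of a feature's length with reads, was high for most of the 200. Its median was 90.9% to 92.6% in the 4 libraries. At least 95% of the length was covered in every library for 68 features, and under 60% in every library for 11. The remaining 121 lay between or crossed these limits. Coverage hardly moved between libraries: its range over the 4 libraries had a median of 2.36 percentage points, and for 70 features it was under 1. Both limits were set after the values were seen.

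Some abundant features were read over part of their length only, and over nearly the same share in each library. Coverage does not give where along a feature the reads lay. TCONS_00002201 is 3591 bases long and was read 4010 and 3243 times in the vehicle libraries, against 4259 and 2646 after retinoic acid. Those reads covered 7.63%, 7.63%, 7.63% and 7.66% of it, which is at most 275 bases. TCONS_00083859, of 782 bases, was covered over 45.4% in all 4 libraries with 847 to 1077 reads. TCONS_00053032, of 562 bases, was covered over 19.75% to 19.93%, at most 112 bases, with 737 to 1108 reads. For these features the RPKM spreads the reads over bases that had none, so it understates the level of the bases that were read. TCONS_00139185, the unsteady feature of rank 8, is also among the 11 features covered under 60%, with 53.33% to 56.84% of its 285 bases covered. Of the 11 features, 5 kept their coverage within 1 percentage point over the 4 libraries, the first ones named here among them. In the others it varied more, with a widest range of 18.25 percentage points.

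In 8 features coverage ranged over more than 20 percentage points between libraries. One of them, ranked 62, is among the features called lower after retinoic acid, and its values are given with that call. TCONS_00016174, of 905 bases, had the widest range. Its coverage was 80.4% and 37.6% in the vehicle libraries and 67.9% and 86.7% after retinoic acid, with 4766 and 6247 reads and then 4214 and 4823. The library with the most reads covered the least of it. TCONS_00154130, of 231 bases, was covered over 86.6% and 47.6% in vehicle and 47.6% and 71.9% after retinoic acid, with 505 to 597 reads.

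**Figure D3:**
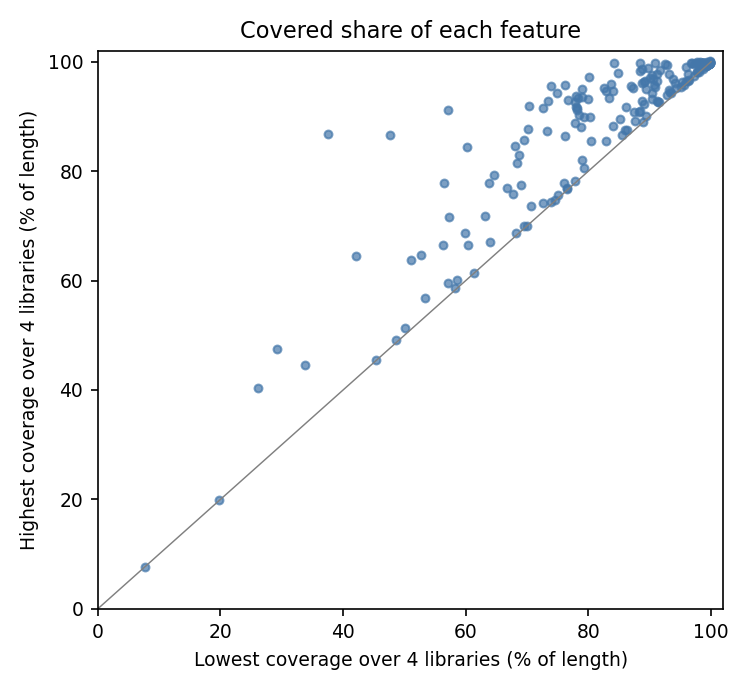
Highest against lowest coverage over the 4 libraries, in percent of the feature's length, for each of the 200 features; points on the grey diagonal have equal coverage in every library. Most points lie on or near the diagonal in the upper right, TCONS_00002201 sits on it at 7.63%, and the point farthest above it is TCONS_00016174, whose lowest value is 37.6%.

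The 200 features were spread over the identifier numbers, with 2 pairs of consecutive ones. TCONS_00092431, of 611 bases, and TCONS_00092432, of 670 bases, had close counts in every library: 759 and 760 reads in vehicle replicate 1, 894 and 900 in vehicle replicate 2, 1040 and 953 in retinoic acid replicate 1, and 908 and 932 in retinoic acid replicate 2. TCONS_00161421, of 249 bases, and TCONS_00161422, of 225 bases, were less alike, with 309 and 208 reads in vehicle replicate 1 and 306 and 140 in retinoic acid replicate 2. Whether neighbours share reads cannot be read from the files.

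The level of the 200 features differed between libraries of the same group in a way that crossed the treatment. After TMM scaling, which sets libraries to a common level by the bulk of their features, 178 of the 200 were higher in vehicle replicate 2 than in vehicle replicate 1, beside 48.5% of all features tested. In the same way 176 were higher in retinoic acid replicate 1 than in retinoic acid replicate 2, beside 49.1% of all. Both held for 154 features (77.0%), against 23.5% of all. The highest of the 4 libraries was vehicle replicate 2 for 118 features and retinoic acid replicate 1 for 73, and the lowest was retinoic acid replicate 2 for 112 and vehicle replicate 1 for 73. TMM scaling itself adds to both steps. Its factors were 1.02 and 0.956 for vehicle replicates 1 and 2, and 0.96 and 1.07 for retinoic acid replicates 1 and 2. In RPKM, which lacks this scaling, some of these features went the other way. Between the retinoic acid libraries TCONS_00164259 did so (1692 and 1798), and between the vehicle libraries TCONS_00145016 (2409 and 2356). Their number was not counted, and the counts of 178, 176 and 154 would be lower in RPKM. The share of all counted reads taken by the 200, also free of this scaling, was higher in the same library of each group.

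The step had the same direction in every length class, and its size was not compared between classes by a test. The median log2 difference between vehicle replicates 2 and 1 was 0.32 for features under 300 bases, 0.36 from 300 to under 1000, 0.26 from 1000 to under 3000 and 0.23 from 3000 upwards. Between retinoic acid replicates 1 and 2 it was 0.27, 0.23, 0.30 and 0.34 in the same order. The 200 most abundant features of the n series, the other kind of identifier in the files, chosen by the same rule, behaved alike, with 164 higher in vehicle replicate 2 and 173 higher in retinoic acid replicate 1. The breadth of the libraries moved with this pattern: fewer features were listed for vehicle replicate 2 (58966) and retinoic acid replicate 1 (57804) than for vehicle replicate 1 (60950) and retinoic acid replicate 2 (60161). Its part in the levels was not tested.

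After TMM scaling both steps were not present together in the remaining 46 features. Replicates of a group differed by at least 2-fold in 4 features in vehicle and in 4 others after retinoic acid. In vehicle the higher library was replicate 2 in each case, with 0 the other way, and the features were 205 to 285 bases long. TCONS_00139185 was 2.98-fold higher there. TCONS_00010407, 205 bases long and ranked 32, was read 641 and 1301 times in the vehicle libraries, against 850 and 1150 after retinoic acid. TCONS_00027841, of 226 bases and ranked 15, had 1310 and 2608 reads against 1298 and 1819. In these 2 and in TCONS_00162586 the replicate 2 library was the higher in both groups, by 1.18-fold to 1.26-fold after retinoic acid, whereas in TCONS_00139185 retinoic acid replicate 1 was the higher.

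After retinoic acid the higher library was replicate 1 in each of the 4, with 0 the other way. The longest of them had 3198 bases and the gap was 2.04-fold to 2.43-fold. The widest gap was that of TCONS_00073609, the shortest of the 4, with 489 and 224 reads after retinoic acid and 385 and 451 in vehicle. TCONS_00023551, the longest, had 8147 and 4452 reads after retinoic acid and 6201 and 5793 in vehicle. All features named here for a gap between replicates were picked after their values were seen.

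**Figure D4:**
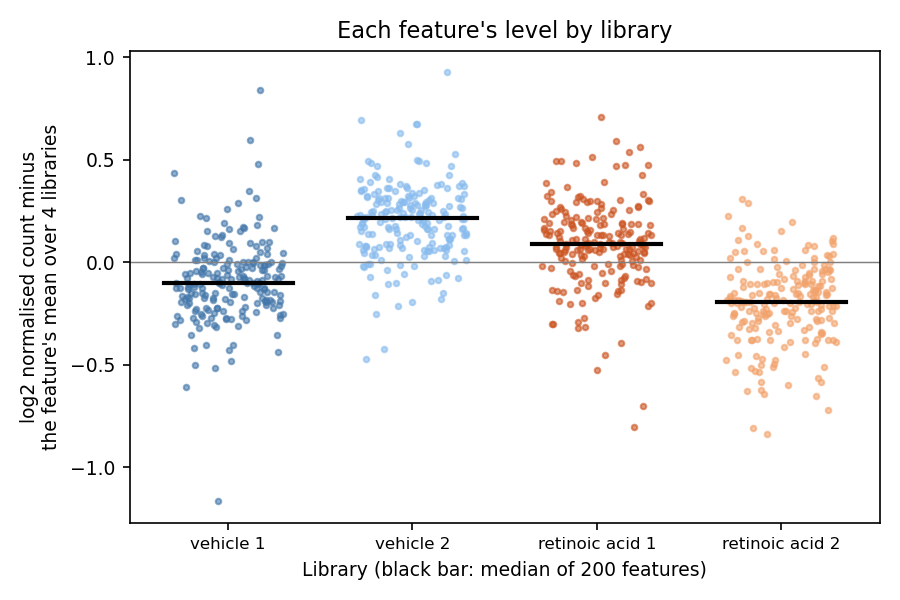
Each point is 1 of the 200 features in 1 library: its log2 normalised count minus its own mean over the 4 libraries (vertical), with the median of the 200 as a black bar. The bars of vehicle replicate 2 and retinoic acid replicate 1 lie above 0 and those of vehicle replicate 1 and retinoic acid replicate 2 below it, so the libraries do not part by treatment.

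After retinoic acid 4 of the 200 features fell and 0 rose in edgeR's quasi-likelihood test at a Benjamini-Hochberg adjusted p under 0.05. That is 2.0% of the 200, beside 1.83% of the 32160 features tested; lower calls were 1.19% and higher calls 0.634% of all. The share called among the 200 is thus near the background. Of the 200 most abundant n features, 3 were called lower and 0 higher, or 1.5%. All 200 passed the filter on low counts. At an unadjusted p under 0.05 there were 12 lower and 2 higher, or 7.0% of the 200 beside 10.3% of all. DESeq2 called 5 of the 200, all lower, beside 1.17% of the 25458 features it gave an adjusted p. Limma-voom called 7, of which 1, TCONS_00139185, was higher, beside 1.68% of all. Because the features were chosen for high vehicle values, the choice itself can pull their differences down. Of 200 features chosen by the mean over all 4 libraries, 189 were the same and 2 were called lower, and of 200 chosen by the retinoic acid mean 1 was called lower. None of these other choices gave a higher call (0).

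The largest fall was that of TCONS_00163576, a feature of 2263 bases ranked 52. It had 5964 and 5072 reads in the vehicle libraries and 1884 and 1910 in the retinoic acid libraries, or RPKM of 323.1 and 275.6 against 105.1 and 106.5. The groups are far apart and the retinoic acid libraries nearly equal. It was 2.91-fold lower after retinoic acid (log2 fold change -1.54 ± 0.26 SE, edgeR adjusted p = 0.000174), and its rank went from 52 to 215. Coverage was 88.1% and 91.8% in vehicle and 82.4% and 78.0% after retinoic acid, so most of its length was still read.

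TCONS_00097442, of 2796 bases and ranked 164, fell by nearly the same factor. Its reads numbered 2645 and 3126 with vehicle, against 921 and 1086 after retinoic acid, or RPKM of 116.0 and 137.5 against 41.6 and 49.0. It was 2.90-fold lower (log2 fold change -1.54 ± 0.25 SE, edgeR adjusted p = 0.000143), and its rank went from 164 to 616, the furthest drop of the 200. Its reads covered only 26.1% to 40.3% of its length. In vehicle the coverage was 26.1% and 40.3% and after retinoic acid 26.9% and 36.1%, so the covered share did not fall with the reads. Both features were called with each library left out in turn, with log2 fold changes of -1.62 to -1.47 for TCONS_00163576 and -1.72 to -1.36 for TCONS_00097442. In bulk RNA, fewer cells of a kind that carries such a feature and less of it per cell cannot be told apart.

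The other features called lower were shorter. The one ranked 148, 774 bases long, was read 847 and 911 times in the vehicle libraries, against 388 and 403 after retinoic acid (log2 fold change -1.16, edgeR adjusted p = 0.0045). It was covered over 76.1% to 77.9% in all 4 libraries. The one ranked 62, of 1276 bases, had 2747 and 2750 reads against 1503 and 1325 (log2 fold change -0.96, edgeR adjusted p = 0.0305). Its coverage was 83.5% and 91.1% in vehicle and 57.1% and 77.7% after retinoic acid, so coverage and reads were both lower. These calls were less firm, since the former was lost without vehicle replicate 2 or retinoic acid replicate 2 (adjusted p = 0.0817 and 0.0911). The latter was lost without any library but retinoic acid replicate 1 (adjusted p = 0.0822 to 0.349) and with the replicate number as a block (adjusted p = 0.0957). None of the 41 features under 300 bases was called (0), nor any of the 37 of 3000 bases or more (0), beside 1.83% of all features tested. At such a share, sets this small can hold no call, so these counts are no result about length.

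Other fits called 2 to 7 of the 200, each count given here beside the share called over all features of that fit. Of the 200, 4 were called with upper-quartile scaling (1.84% of all features tested), 4 with library totals alone (0.491%) and 4 without a low-count filter (0.859%). With at least 50 counts required in at least 2 libraries 7 were called (3.69% of all), and with the replicate block 3 (2.38%). Without vehicle replicate 1 there were 3 (1.49% of all), without vehicle replicate 2 also 3, of which 1 was higher (0.905%), without retinoic acid replicate 1 there were 4 (0.743%), and without retinoic acid replicate 2 there were 2 (0.987%). The 2 features with the largest falls were called in each of these fits and by DESeq2 and limma-voom.

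**Figure D5:**
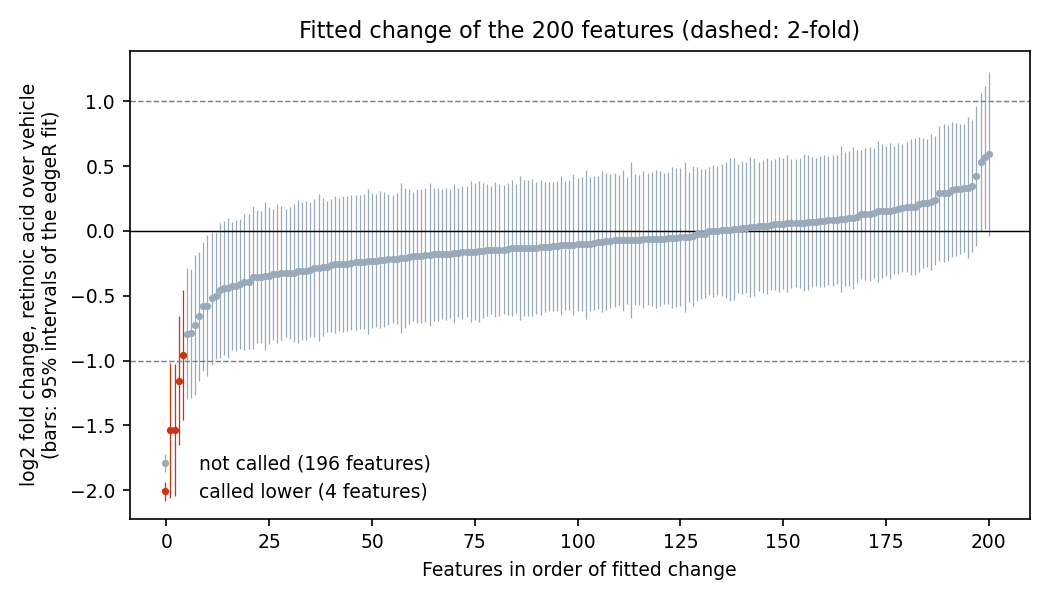
Fitted log2 fold change of retinoic acid over vehicle for each of the 200 features in order of size, with 95% intervals of the edgeR fit as bars; the 4 called features are red, the dashed lines mark a 2-fold change. The called features lie between -1.54 and -0.96, and the other 196 between -0.79 and 0.59.

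Most of the 200 changed little, as far as the spread between libraries can show. The 95% interval of the fold change lay within 2-fold either way for 186 features, beside 26.4% of all features tested. Such intervals narrow with more reads, and the 200 were chosen for abundance. Their median vehicle RPKM was 189.7, against 2.476 over all features tested. The shares with narrow intervals thus do not compare how steady the features were. The quartiles of the fitted log2 changes were -0.23 and 0.055, and the median standard error was 0.26, against 0.51 over all features. Changes smaller than 2-fold are therefore not excluded for most. The libraries of the groups did not overlap for 32 features lower and 9 higher after retinoic acid, 20.5% of the 200. Beside that, 38.9% of all features tested did not overlap (19.1% lower, 19.8% higher).

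The median fitted log2 change over the 200 was -0.10, beside 0.0033 over all features tested. Over the 200 most abundant n features it was -0.097. Both sets were chosen for high vehicle values, which can pull both medians down, so their likeness shows no shared response. For TCONS_ features chosen by the mean over all 4 libraries the median was -0.071, and by the retinoic acid mean -0.059. The small shift of the 200 TCONS_ features lay within the differences between libraries. From vehicle replicate 1 to retinoic acid replicate 1 the median difference was 0.21, and from vehicle replicate 2 to retinoic acid replicate 2 it was -0.41. Between libraries of like breadth it was -0.12 from vehicle replicate 2 to retinoic acid replicate 1 and -0.093 from vehicle replicate 1 to retinoic acid replicate 2. Without vehicle replicate 2 the fitted median turned to 0.086, and without retinoic acid replicate 2 to 0.040. The medians between single libraries thus ran from -0.41 to 0.21, with both signs. For TCONS_00163576 the same 4 differences between libraries lay between -1.68 and -1.40, and for TCONS_00097442 between -1.73 and -1.32, so their falls did not depend on which libraries were paired.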

How the data were processed

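Each deposited file lists, for 1 library, identifiers with a count of unique reads, a length, a coverage and an RPKM, per the file headers. The authors' counts are raw whole numbers, with a feature missing from a file set to 0. The authors' RPKM values were made from count, length and header total, since values recomputed from these differed by a relative 2.2e-08 or less. Coverage is the authors' percent of length per the file headers; 1 value in each retinoic acid file passed 100%. The sources used here do not give the aligner, assembly or genome build. Counts were tested with edgeR 4.0.16 (R 4.3.3): filterByExpr kept 32160 features, TMM factors were 0.956 to 1.07, and glmQLFTest (two-sided, no term but the group) was adjusted over all features kept. Normalised counts are counts over the effective library size. The test was checked on simulated counts. Other settings tried were limma-voom (limma 3.58.1), DESeq2 1.42.0, other scalings and filters, the replicate block, each library left out, and other choices of features. The features, lists and tests were chosen with earlier results of these data known. By rule the text names the 10 highest features, the 2 at either side of the limit, and up to 2 called per direction with groups apart; the length classes were set after seeing the data. No sequences were matched.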

Additional observations from a re-analysis of the deposited data

How the results depend on the processing

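The 4 features called, all lower, became 7 with limma-voom (1 of them higher) and 7 lower with at least 50 counts in at least 2 libraries; DESeq2, the other scalings and no filter stayed within 1.5 times. Leaving out a library gave 2 to 4 calls, 0 to 1 higher and 2 to 4 lower. Numbers shared by the groups do not pair the libraries in the labels. The difference between replicates 1 and 2 in vehicle was correlated across features with that after retinoic acid. This gave r = 0.067 over all features tested and 0.53 over the 200. That r is taken about the mean difference and hides its sign. After TMM scaling the groups stepped in opposite directions in 154 of the 200 features. With the replicate block 3 features were called lower. Other choices of features gave lower calls alone, beside 1.83% of all features tested called in either direction. There were 2 (1.0% of the features chosen) by the mean over all 4 libraries and 7 (3.5%) without division by length. The 100 highest held 2 (2.0%) and the 400 highest 13 (3.25%). Features of at least 500 bases gave 8 (4.0%), and the retinoic acid mean gave 1 (0.5%). The median log2 change of -0.10 ranged from -0.27 to 0.086 with a library left out, and was 0.096 for features chosen on vehicle replicate 2 alone and compared with vehicle replicate 1, and -0.23 for the mirror choice. On the log2(RPKM + 1) scale the median difference of -0.061 ranged from -0.17 to 0.071. The share of reads, 8.47% in vehicle and 8.12% after retinoic acid, ranged with a library left out from 7.93% to 9.01% and from 7.60% to 8.64%. As a share of summed RPKM it was 11.3% and 10.8%, without division by length 11.0% and 10.6%, for the 100 highest 5.92% and 5.59%, and for the 400 highest 11.9% and 11.4%. Between 177 and 180 features stayed among the 200 highest with a library left out, against 181. Of the 10 highest features, 8 changed sign in a fit without 1 library, with ranges of -0.75 to 0.35 for TCONS_00162586, -0.32 to 0.048 for TCONS_00072821, -0.081 to 0.12 for TCONS_00034149, -0.63 to 0.20 for TCONS_00145016, -0.18 to 0.27 for TCONS_00053483, -0.016 to 1.59 for TCONS_00139185, -0.28 to 0.13 for TCONS_00003900 and -0.43 to 0.045 for TCONS_00037219. The causes were not tested.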
